A study of Mus musculus with 24 samples.

Results

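ATF4 (activating transcription factor 4) switches on genes that supply cells with amino acids, and 10 of these genes were followed here in mouse E14 embryonic stem cells, out of 23917 gene symbols in each of the deposited tables. They were chosen by name, with earlier results of these data known. They are the serine synthesis enzymes Phgdh, Psat1 and Psph, the mitochondrial one-carbon enzymes Shmt2 and Mthfd2, and the asparagine synthetase Asns. The others are the cystine transporter Slc7a11 and the stress-induced genes Chac1, Trib3 and Sesn2. All 10 were found in both tables, one of total RNA and one of ribosome footprints of 26 to 32 nucleotides. E14 cells, 1 established stem cell line, had been transfected with LNA-containing oligonucleotides antisense to tRF-GG, a fragment of glycine tRNAs (the inhibitor), with GFP-esiRNA, or mock. LNA (locked nucleic acid) makes an antisense oligonucleotide bind tightly, and an esiRNA is a pool of short interfering RNAs, here against a gene that mouse cells lack. Each transfection had 4 RNA and 4 footprint libraries, 24 in all, numbered 1 to 4 as in their labels. The labels do not say that the numbers are separate cultures, so p-values measure the spread between libraries, which may be technical.

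When amino acids run short or unfolded proteins build up, kinases phosphorylate the initiation factor eIF2, general translation drops, and the upstream reading frames of the Atf4 mRNA let its main frame be translated. The ATF4 protein pairs with C/EBP factors on a composite promoter site and raises transport and synthesis of amino acids. Serine is made from a glycolytic intermediate by PHGDH, PSAT1 and PSPH in turn. SHMT2 splits serine into glycine and a one-carbon unit in mitochondria, MTHFD2 carries that unit onward, and proliferating cells such as embryonic stem cells use the product for nucleotides. Trib3, Chac1 and Sesn2 belong to the stress arm of the programme: TRIB3 is a pseudokinase that restrains ATF4, CHAC1 degrades glutathione, and SESN2 is a leucine sensor that holds back mTORC1.

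The composite site, with the core TGATGNAA on either strand, was searched in RefSeq promoters (GRCm38.p6, the assembly known as mm10) that run from 250 bases before to 50 after a start listed for the gene. Of 32851 promoters 1304 (3.97%) held it. All 10 members matched the table, with 11 promoters, and 4 of these held the core, those of Asns, Chac1, Trib3 and Slc7a11. The windows are shown because they hold the letters that ATF4 with C/EBP is known to recognise; capitals mark the match, all are written 5′ to 3′ on the gene's strand, and a match is a description of letters, not of binding.
Asns: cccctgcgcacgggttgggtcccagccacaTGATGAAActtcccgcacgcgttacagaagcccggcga
Chac1: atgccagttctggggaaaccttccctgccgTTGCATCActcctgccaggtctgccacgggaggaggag
Trib3: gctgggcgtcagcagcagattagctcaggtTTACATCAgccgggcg
Slc7a11: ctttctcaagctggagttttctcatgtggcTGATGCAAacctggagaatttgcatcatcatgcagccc
The Asns window is chr6:7693195-7693262 on the minus strand, with the match at -23 from the start. The Chac1 window is chr2:119351019-119351086 on the plus strand (match at -193, on the opposite strand), and the Trib3 window is chr2:152344031-152344076 on the minus strand (match at 14 after the start, on the opposite strand). For Slc7a11 the window is chr3:50443642-50443709 on the minus strand, with a match at -66 and another on the opposite strand at -47, which is left in lower case. The promoters of Phgdh, Psat1, Psph, Shmt2, Mthfd2 and Sesn2 did not hold these letters in this window. In the same assembly Asns spans chr6:7675165-7693209, Phgdh chr3:98313171-98339969, Psat1 chr19:15905123-15925059, Psph chr5:129765558-129787443 and Shmt2 chr10:127517123-127522444. Mthfd2 spans chr6:83305704-83326011, Slc7a11 chr3:50364936-50499087, Chac1 chr2:119351242-119354326, Trib3 chr2:152337425-152344060 and Sesn2 chr4:132492804-132510456. For Slc7a11 and Mthfd2 the promoter searched lies inside the gene's span, at a start downstream of its outermost end (for Mthfd2 chr6:83317555-83317854).

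The values are FPKM, fragments per length of transcript and size of library, scaled between the libraries of a table. The ribosomal precursor Rn45s took 62.7% of the summed FPKM in inhibitor RNA 1, 39.1% in mock RNA 1, 18.1% in GFP RNA 1 and 1.68% to 5.25% in the other RNA libraries, and 18.5% to 44.2% in footprint libraries. Absolute depth is unknown; low values put the deepest RNA library at 13.6 times the shallowest, mock RNA 3, and the deepest footprint library at 4.80 times inhibitor footprint 3. Because inhibitor RNA 1 stands apart, members' medians are also given without the libraries numbered 1. The 12 stem cell markers summed to 2726 to 3928 scaled FPKM in RNA. Each had a median of at least 0.5 over all RNA libraries and over all footprint libraries. Of 10 fibroblast markers, for feeder cells, 8 had a median under 0.5 over all RNA libraries, and 8 over all footprint libraries. The list summed to 3.40 to 15.3 in RNA.

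Levels of the members in control cells spanned the range from abundant enzymes to a scarce transporter. Asns, which makes asparagine from aspartate and glutamine, was the highest in both tables, with a median over the 8 control libraries of 155 scaled FPKM in RNA and 137 in footprints. Shmt2 (116), Psat1 (109) and Phgdh (90.5) followed in RNA, then Sesn2 (54.3), Psph (34.6), Trib3 (28.4), Mthfd2 (24.5) and Chac1 (20.8). Slc7a11, the exchanger that brings in cystine for glutathione, was the lowest at 3.17 in RNA and 1.32 in footprints. Neighbours in the RNA order were not always apart. Shmt2 lay above Psat1 in 4 of 12 libraries and Mthfd2 above Chac1 in 7 of 12, whereas Sesn2 lay above Psph and Chac1 above Slc7a11 in 12 of 12. In footprints the order was Asns, Shmt2 (87.0), Phgdh (85.3), Psat1 (70.3), Psph (33.0), Sesn2 (18.5), Trib3 (14.2), Mthfd2 (9.98), Chac1 (9.82) and Slc7a11. Asns lay above Shmt2 there in 7 of 12 libraries and Psat1 above Psph in 12 of 12.

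Relative to their RNA, Psph and Phgdh stood highest of the members in footprints and Sesn2 lowest. The log2 footprint value minus the log2 RNA value of the same control number was -0.06 ± 0.25 for Psph and -0.12 ± 0.12 for Phgdh (SD over 8 control pairs), at percentiles 87.9 and 86.0 of 10497 genes whose median was -0.81. Shmt2 (-0.28 ± 0.32) and Asns (-0.45 ± 0.37) also lay above that median. Sesn2 stood at -1.57 ± 0.24, percentile 14.0. Atf4 itself, not one of the 10, stood at -1.80 ± 0.34, percentile 8.38. The 3 serine enzymes thus differed among themselves, with Psat1 at -0.63 ± 0.20. The 2 tables were scaled separately, so the ratio ranks genes against each other and its zero has no meaning of its own. Its values are per gene, so footprints in a main frame and in upstream frames, as of Atf4, are not told apart. The part of each transcript that is translated was not taken into account, so the ranking is not one of translation alone. Whether footprint and RNA libraries of the same number pair was not tested. Mock footprints 1 and 2 did not pair by number with the other footprint libraries, so the SDs may include mismatched pairs.

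**Figure D1:**
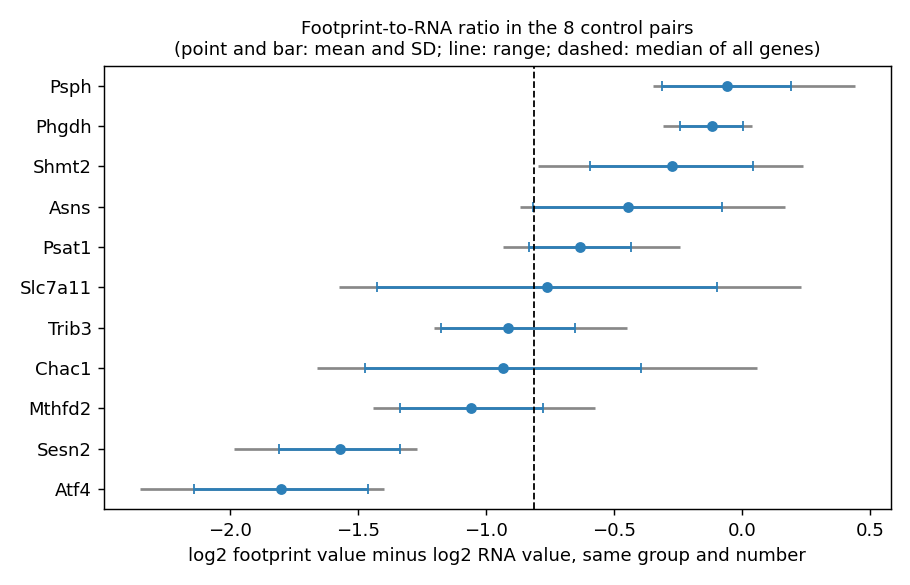
Footprint-to-RNA ratio of the members and Atf4 in control libraries; the x axis is the log2 footprint value minus the log2 RNA value of the same group and number, points and bars are the mean and SD over 8 control pairs, lines the range, and the dashed line the median of all genes (-0.81). Psph and Phgdh lie at the top at -0.06 and -0.12, and Sesn2 and Atf4 at the bottom at -1.57 and -1.80.

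The first comparison, of inhibitor with GFP esiRNA, asks whether these mRNAs differ when tRF-GG is blocked. The transfections held no LNA oligonucleotide against another target, so blocking tRF-GG and the LNA oligonucleotide itself cannot be told apart. In RNA, 7 of 10 members had a log2 difference below 0, with a median of -0.14, where 52.2% of all 12560 genes tested were below 0 with a median of -0.01. By limma with Benjamini-Hochberg adjustment 0 of 10 members passed 0.05, where 0.0159% of all genes did. No member had an unadjusted p under 0.05 either (0, against 3.11% of genes), and with libraries paired by number again 0 did (6.86% of genes) and 0 passed after adjustment (0.255%). In these bulk libraries, fewer cells of a type and less RNA per cell cannot be told apart.

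Phgdh, the first enzyme of serine synthesis, had 40.2, 77.2, 73.1 and 111 scaled FPKM in inhibitor RNA 1 to 4, and 77.2, 64.9, 104 and 122 in GFP RNA 1 to 4. The lowest value is that of inhibitor RNA 1 and the groups overlap. The log2 difference was -0.33 (SE 0.29, 95% interval -0.94 to 0.28, n = 4 per group, adjusted p = 1 by limma). Psph, the phosphatase of the last step, differed by -0.20 (SE 0.23), and Psat1, the transaminase between them, by -0.09 (SE 0.16). Psat1 varied least of the 3, with 100.8 ± 9.53 in inhibitor and 108 ± 16.4 in GFP RNA (SD).

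Shmt2 RNA stood at 96.9 ± 34.0 scaled FPKM in inhibitor and 111 ± 40.4 in GFP libraries, a log2 difference of -0.18 (SE 0.29). Without inhibitor RNA 1 that difference was 0.01. Mthfd2 differed by -0.06 (SE 0.20, interval -0.48 to 0.36). Asns, with 187 ± 62.4 against 181 ± 89.6, differed by 0.10 (SE 0.32, interval -0.59 to 0.79). In both groups its SD in scaled FPKM was larger than the difference between the means. With libraries paired by number the SE of its log2 difference was 0.13.

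Slc7a11 RNA was 4.07, 0.36, 2.79 and 2.38 scaled FPKM in inhibitor libraries 1 to 4, and 5.25, 1.11, 2.79 and 4.10 in GFP libraries. It had the largest difference of the 10 in RNA, -0.38 (SE 0.49, interval -1.43 to 0.66), and its values differ more between numbers than between the transfections of 1 number. Without inhibitor RNA 2 the difference was 0.01. Chac1 had 14.4, 17.2, 27.6 and 18.6 in inhibitor and 22.1, 19.5, 27.7 and 23.4 in GFP RNA. Chac1 and Slc7a11 were lower in inhibitor than in GFP RNA in 4 of 4 numbered pairs, and 9.32% of all genes were lower in all 4 pairs. In pair 3 the log2 difference was only -0.004 for Chac1, and that of Slc7a11 is hidden by rounding. Trib3 (0.01, SE 0.23) and Sesn2 (0.10, SE 0.19) lay near 0, as did Atf4 (0.02, SE 0.21).

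**Figure D2:**
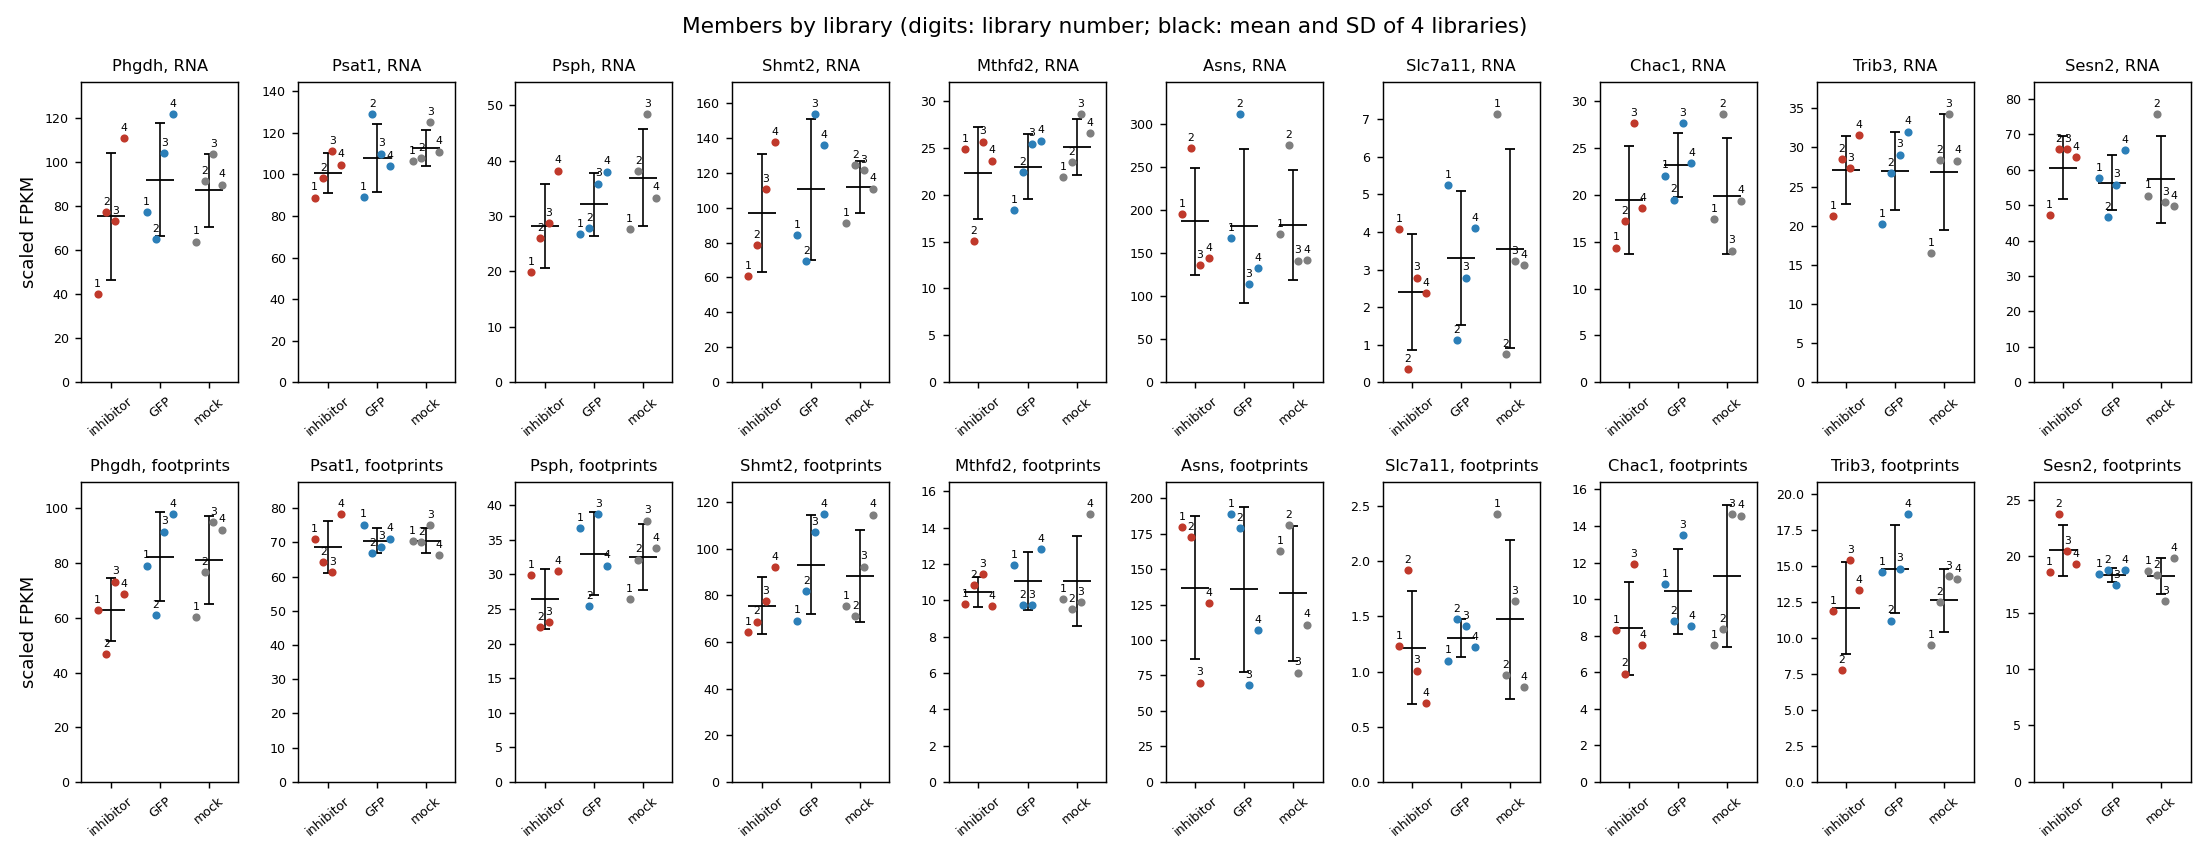
Scaled FPKM of each member in every RNA library (top) and footprint library (bottom), by group; digits give the library number and black marks the mean and SD of 4 libraries. For each member the groups overlap, and Asns and Slc7a11 RNA differ by library number, with Slc7a11 RNA at 0.36 to 1.11 in all 3 libraries numbered 2.

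In footprints, which count mRNA positions held by ribosomes, 8 of 10 members were below 0 against GFP esiRNA, with a median of -0.18, where 47.0% of 10669 genes were below 0 and their median was 0.01. By limma 0 of 10 passed, where 0.00937% of all genes did, and 0 had an unadjusted p under 0.05 (3.31% of genes). With pairing 2 members had an unadjusted p under 0.05 (7.74% of genes) and 0 passed after adjustment (0.0750%). The members' median was -0.12 among libraries numbered 1 and 2 and -0.18 among those numbered 3 and 4.

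Phgdh footprints were 62.9, 46.8, 73.3 and 68.8 scaled FPKM in inhibitor libraries 1 to 4, and 79.1, 61.1, 91.5 and 97.9 in GFP libraries 1 to 4. Each inhibitor library lies below the GFP library of its number, while the groups still overlap. The log2 difference of -0.38 (SE 0.20, interval -0.82 to 0.05) was the lowest of the 10 members, at percentile 3.75 of all genes, and ranged from -0.50 to -0.32 over the 4 pairs. Its adjusted p by limma was 1, with the replicate block 0.479 (unadjusted 0.0113), and with the block and only these groups 0.112, the lowest value in any alternative run for a member.

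Psph footprints were 29.8, 22.4, 23.0 and 30.4 in inhibitor and 36.6, 25.4, 38.7 and 31.2 in GFP libraries. The log2 difference was -0.31 (SE 0.17), and -0.72 to -0.04 over the pairs. Shmt2 footprints were 64.2, 68.8, 77.4 and 92.2 in inhibitor and 69.2, 81.7, 107 and 115 in GFP libraries. Its difference was -0.28 (SE 0.20) and -0.47 to -0.11 over the pairs, with an adjusted p = 0.486 with the replicate block (unadjusted 0.0134). Chac1, which cleaves glutathione, stood at 8.31, 5.92, 11.9 and 7.49 against 10.8, 8.82, 13.5 and 8.52, a difference of -0.30 (SE 0.25).

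Phgdh, Psph, Shmt2 and Chac1 were thus lower in 4 of 4 pairs, 4 of 10 members, where 9.01% of all genes were. Sesn2 was higher in 4 of 4 pairs, with 20.5 ± 2.28 against 18.3 ± 0.626 scaled FPKM (log2 difference 0.15, SE 0.13), where 11.0% of all genes were. Trib3 differed by -0.29 (SE 0.21), higher in inhibitor library 3 and lower in the other 3 pairs. Psat1 (-0.04, SE 0.12), Mthfd2 (-0.07, SE 0.16), Asns (0.04, SE 0.39) and Slc7a11 (-0.08, SE 0.21) had both signs among their pairs. With pairing the SE of Asns was 0.096. Atf4 stood at -0.00 (SE 0.19).

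Against the mock transfection, the second control, 7 of 10 members were below 0 in RNA (median -0.17, 51.6% of all genes) and 8 of 10 in footprints (median -0.11, 49.3% of all genes). By limma 0 of 10 passed in RNA (0.0239% of all genes) and 0 of 10 in footprints (0% of all genes), and none had an unadjusted p under 0.05 (0 in each, against 3.66% and 3.59% of genes). With the block the unadjusted p was under 0.05 for 1 member in RNA (8.42% of genes), Psph with 0.0339 (adjusted p = 0.547 by limma). In footprints it was so for 1 member (7.93% of genes), Phgdh with 0.0156 (adjusted p = 0.491). After adjustment 0 passed in either (0.271% and 0.0187% of genes). Mock footprints 1 and 2 did not pair with the others by number, so the footprint block against mock joins libraries that do not pair. The inhibitor libraries are the same in both comparisons, so their values stand side by side and are not independent of each other.

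Psph RNA was 27.7, 38.2, 48.3 and 33.3 scaled FPKM in mock libraries 1 to 4 and 19.8, 26.0, 28.7 and 38.2 in inhibitor libraries. Inhibitor RNA 4 lies above its mock number and the other 3 below theirs. The log2 difference was -0.38 (SE 0.23, interval -0.87 to 0.10). Phgdh differed by -0.27 in RNA (SE 0.29) and by -0.36 in footprints (SE 0.20, interval -0.79 to 0.08). Its mock footprint values of 60.3, 76.7, 95.01 and 92.2 lay above the inhibitor value of their number in 3 of 4 cases. Psat1 RNA was lower in 4 of 4 pairs (-0.16, SE 0.16), as was Slc7a11 RNA (-0.37, SE 0.49), where 7.65% of all genes were. Inhibitor RNA 3 correlated better with mock RNA 4 than with mock RNA 3, so pairing by number is weaker there. Shmt2 footprints were lower in 4 of 4 numbers (-0.21, SE 0.20), where 5.78% of all genes were, though mock footprints 1 and 2 did not pair with the others by number.

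The other members differed from mock as follows. Shmt2 RNA stood at -0.26 and Mthfd2 RNA at -0.19, while Mthfd2 footprints stood at -0.06. Chac1 had -0.02 in RNA and -0.36 in footprints (SE 0.25), where mock footprints 3 and 4 each had 14.6 scaled FPKM. Sesn2 was again above 0, with 0.09 in RNA and 0.16 in footprints, and Asns stood at 0.03 in each. Between the controls, GFP minus mock, the members' median was -0.04 in RNA, with 6 of 10 below 0 (48.8% of genes), and 0.01 in footprints, with 3 of 10 below 0 (53.8%). By limma 0 of 10 passed there (0% and 0.00937% of all genes) and 0 of 10 had an unadjusted p under 0.05 (0.525% and 0.459% of genes).

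**Figure D3:**
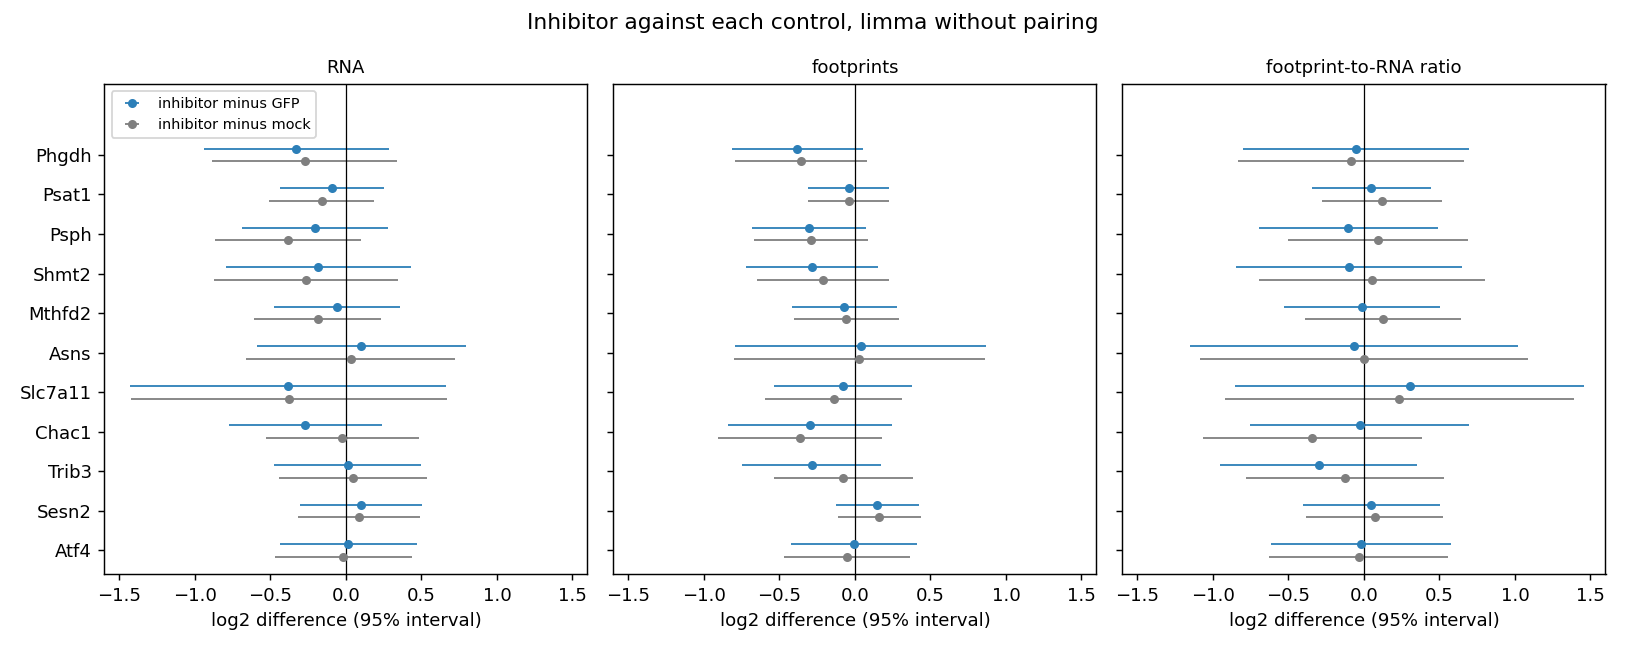
Log2 differences of the members and Atf4, inhibitor minus GFP esiRNA and inhibitor minus mock, in RNA, footprints and the footprint-to-RNA ratio; points are limma estimates without pairing and lines their 95% intervals, not adjusted over genes. Every interval includes 0; that of Phgdh footprints against GFP reaches 0.05.

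In no comparison of the inhibitor with a control did all 4 libraries of one group lie on one side of all 4 of the other for a member (0 of 10). Among all genes the inhibitor lay wholly below GFP esiRNA for 1.20% in RNA and 0.872% in footprints, and wholly above for 1.09% and 1.22%. Against mock these shares were 1.22% and 1.07% below, and 1.13% and 0.947% above. Without the libraries numbered 1 the members' median against GFP esiRNA was -0.11 in RNA and -0.20 in footprints, and against mock -0.12 and -0.13. Among the libraries numbered 1 and 2 the RNA median was -0.17 against GFP esiRNA and -0.33 against mock, and among those numbered 3 and 4 it was -0.10 and -0.09. Against mock the footprint median was -0.10 and -0.22 for these numbers. Single libraries carried part of the RNA medians. Without inhibitor RNA 1 alone they were -0.05 against GFP esiRNA and -0.04 against mock, and without inhibitor RNA 2 alone -0.09 and -0.08. Leaving out GFP RNA 3 or 4 gave -0.08 against GFP esiRNA. The footprint median against GFP esiRNA stayed between -0.23 and -0.13 without any 1 library, and that against mock between -0.18 and -0.08, the latter end without mock footprint 4 and the former without mock footprint 2.

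The footprint-to-RNA ratio asks whether ribosome occupancy moved apart from the mRNA. Its members' median was -0.04 for inhibitor minus GFP esiRNA, with 7 of 10 below 0 (44.0% of 10497 genes), and 0.06 for inhibitor minus mock, with 4 of 10 below 0 (47.5%). By limma 0 of 10 passed in both, where 0% of all genes did, and 0 of 10 had an unadjusted p under 0.05 (0.714% and 0.915% of genes, and with pairing 0 of 10 against 1.98% and 2.87%). The members farthest from 0 were Trib3 (-0.30, SE 0.32) and Slc7a11 (0.30, SE 0.56) against GFP esiRNA, and Chac1 (-0.34, SE 0.35) and Slc7a11 (0.23, SE 0.56) against mock. Without inhibitor library 2 the values of Slc7a11 were -0.23 and -0.30. Unpaired intervals against GFP esiRNA ran from -1.15 to 1.02 for Asns (SE 0.53, and 0.15 with the replicate block) and from -0.35 to 0.44 for Psat1.

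The values of Asns were ordered by the number of the library. Its RNA stood at 195, 272, 136 and 145 scaled FPKM in inhibitor libraries 1 to 4, 168, 312, 114 and 132 in GFP libraries, and 172, 276, 141 and 142 in mock libraries. All 6 libraries numbered 1 or 2 lay above all 6 numbered 3 or 4. The same held in footprints, with 179.7, 172, 70.0 and 126 in inhibitor, 189, 179, 68.1 and 107 in GFP, and 163, 181, 77.1 and 111 in mock libraries. The mean log2 difference was 0.74 in RNA and 0.96 in footprints, at percentiles 96.1 and 97.8 of all genes. Of all genes 2.58% in RNA and 6.50% in footprints were separated in this direction and 3.42% and 2.85% in the other, and Asns was the only member separated in either direction. The split into numbers 1 and 2 against 3 and 4 was taken from earlier results of these data, so it only describes them. What the numbers stand for is not given in the labels, and Rn45s is high in the RNA libraries numbered 1 but not in those numbered 2.

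Other members ran the other way by number. Shmt2 stood at -0.62 in RNA and -0.46 in footprints (libraries 1 and 2 minus 3 and 4), Phgdh at -0.56 and -0.43, and Trib3 at -0.38 and -0.41. Chac1 stood at -0.12 in RNA and -0.44 in footprints. Their ranges overlapped between the numbers, as for Shmt2 RNA with 61.0 to 124 against 110 to 153. Slc7a11 RNA was lowest in the 3 libraries numbered 2, at 0.36, 1.11 and 0.76 scaled FPKM. Within each transfection it was highest in the library numbered 1, at 4.07, 5.25 and 7.13. Before scaling the libraries numbered 1 had 0.69, 4.60 and 3.20 FPKM and were not the highest of any transfection. Slc7a11 footprints did not repeat the order of the scaled RNA. They were 1.92, 1.48 and 0.97 in libraries numbered 2 and 1.23, 1.10 and 2.42 in those numbered 1. For Atf4, RNA was 136 to 139 in libraries numbered 1 and 174 to 238 in the others.

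**Figure D4:**
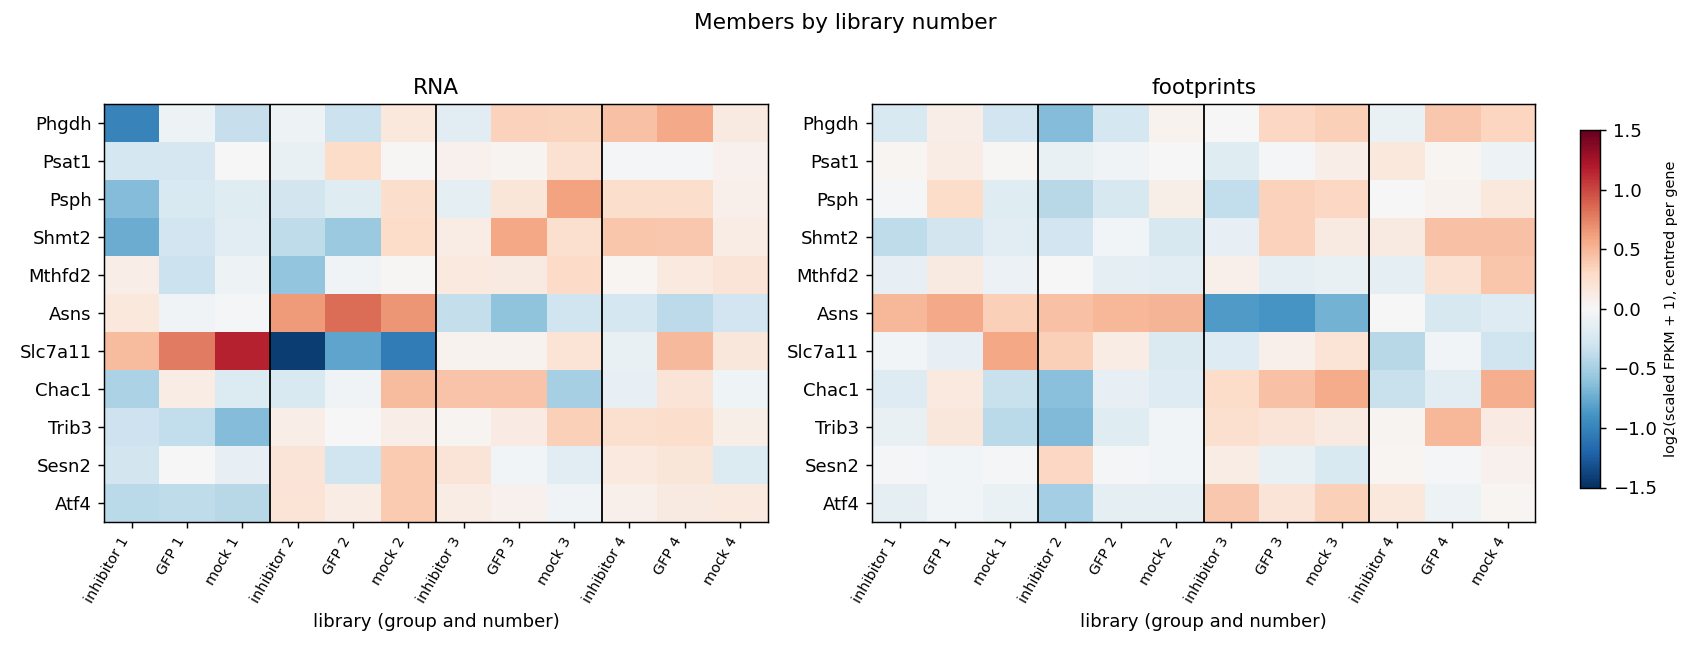
Members and Atf4 in each library, ordered by library number (vertical lines); colour is log2(scaled FPKM + 1) centred per gene, red above and blue below the gene's mean. Asns is higher in every library numbered 1 or 2 than in every one numbered 3 or 4, with mean differences of 0.74 in RNA and 0.96 in footprints, and Shmt2 and Phgdh tend the other way.

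Over the 12 libraries of a table the members did not vary as 1 block. In RNA the values of Phgdh, Psph and Shmt2 went together (Pearson r of log2 values 0.886 for Phgdh and Psph, 0.885 for Phgdh and Shmt2, 0.846 for Psph and Shmt2), while Asns went against Slc7a11 (-0.656) and Shmt2 (-0.638). In footprints Phgdh went with Trib3 (0.890), Psph (0.783) and Chac1 (0.776), and Psph against Sesn2 (-0.761). The median of all 45 pairs was 0.227 in RNA and 0.0648 in footprints. These describe libraries that share number, group and depth. The genes most like the members' mean profile were Pcolce (0.954), the glutamine transporter Slc1a5 (0.951), Nup210 (0.946), Notum (0.938) and Tmem161a (0.935) among 7856 in RNA. In footprints they were the seryl-tRNA synthetase Sars (0.942), Aatf (0.939), Prpf38b (0.920), Set (0.896) and Grb10 (0.866) among 4658.

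The rest of the pathway was read from lists of genes around the members, in the comparison with GFP esiRNA. None of the lists described here had a gene past the threshold in RNA or footprints by limma, with or without pairing (0 each). With pairing 0.255% and 0.0750% of all genes passed. At an unadjusted p under 0.05 each list held 0 or 1 genes per kind of library without pairing (3.11% and 3.31% of all genes). With pairing each held 0 to 3 (6.86% and 7.74% of all genes). ATF4 and its fellow stress regulators had 13 of 21 genes below 0 in RNA (median -0.10) and 13 of 20 in footprints (median -0.02). Jdp2, a partner of AP-1 and C/EBP factors, stood at -0.47 in RNA and -0.66 in footprints (SE 0.15, unadjusted p 0.000820, adjusted p = 0.515 by limma). The mTORC1 inhibitor Ddit4 stood at 0.44 in RNA and the C/EBP gene Cebpb at -0.28 in footprints. At an unadjusted p under 0.05 this list had 0 genes in RNA and 1 in footprints (3.11% and 3.31% of all genes). With pairing it had 3 and 2 (6.86% and 7.74% of all genes).

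Amino acid transporters had 8 of 11 genes below 0 in RNA (median -0.11) and 5 of 11 in footprints (median 0.01). The neutral transporters Slc38a2 and Slc1a4 stood at -0.27 and -0.31 in RNA, and in footprints Slc1a5 stood at -0.36 and Slc43a1 at 0.27. The aminoacyl-tRNA synthetases that answer to ATF4, which load tRNAs, had 10 of 13 below 0 in RNA and 9 of 13 in footprints, with medians of -0.03 and -0.04. Among them Yars stood at 0.20 and Lars at -0.17 in RNA, and Sars at -0.23 and Aars at -0.13 in footprints. The list medians are small beside the SE of single genes, which for Sars footprints was 0.14, less than the size of its own difference.

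Enzymes of folate and glycine metabolism, which receive the products of Shmt2, had 9 of 20 below 0 in RNA (median 0.02) and 7 of 19 in footprints (median 0.05). The methionine synthase Mtr stood at -0.55 in RNA (SE 0.20, unadjusted p 0.0154, adjusted p = 1 by limma), Aldh1l2 at -0.54 in RNA and -0.25 in footprints, and the mitochondrial formate producer Mthfd1l at -0.35 in footprints. Other amino acid enzymes had 11 of 14 below 0 in RNA (median -0.09) and 8 of 14 in footprints (median -0.01). Cth, which makes cysteine from cystathionine, stood at -0.55 in RNA and -0.51 in footprints (SE 0.20), the glutamine synthetase Glul at 0.30 in RNA, and the proline pathway gene Aldh18a1 at -0.24 in footprints. Glutathione and NRF2 target genes, which share Slc7a11 as a target, had medians of -0.02 and -0.01, with 7 of 12 below 0 in each. The NRF2 inhibitor Keap1 stood at -0.36 in RNA, Nfe2l2, which encodes NRF2, at -0.17 in RNA and 0.15 in footprints, and the heme oxygenase Hmox1 at 0.23 in footprints. Of the paralogs of the members 6 of 7 were below 0 in RNA (median -0.10) and 1 of 5 in footprints (median 0.21). The sestrin Sesn3 stood at -0.24 in RNA and 0.32 in footprints, and the cytosolic Shmt1 at -0.17 and -0.16.

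Markers of cell state were read in the same comparison, and 0 passed by limma in any of the 4 lists, with or without pairing. Of 12 stem cell markers 10 were below 0 in RNA (median -0.22, 52.2% of all genes) and 11 in footprints (median -0.15, 47.0%). Sox2 stood at -0.51 and -0.34 and Klf4 at -0.52 and -0.51. In each, 1 had an unadjusted p under 0.05 (3.11% and 3.31% of genes), and 3 with pairing (6.86% and 7.74%). Against mock 8 were below 0 in RNA (median -0.15) and 10 in footprints (median -0.12). For GFP minus mock 8 were above 0 in RNA (median 0.10) and 7 in footprints (median 0.04). Their summed RNA level was 2741 to 3841 scaled FPKM in inhibitor and 2942 to 3811 in GFP libraries. Primitive endoderm markers had 8 of 9 above 0 in RNA (median 0.16) and 7 of 8 in footprints (median 0.15), with Foxa2 at 0.33 and Gata6 at 0.24 in RNA and Sox17 at 0.12 in footprints. Against mock 5 of 9 were above 0 in RNA (median 0.02) and 4 of 8 in footprints (median -0.00), and for GFP minus mock 8 of 9 were below 0 in RNA (median -0.14). Their summed RNA level was 23.99 to 119.8 in inhibitor and 19.96 to 104 in GFP libraries. Trophoblast markers had 5 of 5 above 0 in RNA (median 0.28) and 4 of 5 in footprints (median 0.42), with Hand1 at 0.60, Tfap2c at 0.31 in RNA and Krt18 at 0.75 in footprints. Against mock 5 of 5 were above 0 in RNA (median 0.39) and 4 of 5 in footprints (median 0.56). For GFP minus mock 4 of 5 were above 0 in each (medians 0.11 and 0.12). Their sums in RNA were 13.3 to 48.5 in inhibitor and 8.07 to 53.6 in GFP libraries. Of the fibroblast markers 2 of 10 were high enough to test, Thy1 (0.92 in RNA, 0.76 in footprints) and Pdgfra (0.05 and 0.29), and the list summed to 5.34 to 15.3 in inhibitor and 3.40 to 8.79 in GFP RNA. Against mock these 2 were above 0 in RNA (median 0.41) and in footprints (median 0.45). For GFP minus mock they were below 0 (medians -0.08 and -0.07). By limma 1 of them had an unadjusted p under 0.05 in RNA and footprints against each control (3.11% to 3.66% of genes). The part of these markers in the members' values was not tested.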

How the data were processed

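RNA and ribosome footprints were measured in 12 libraries each. The submitters' processing notes name the mm10 build, RSEM, Bowtie2, TopHat and CASAVA 1.8.2, the only program with a version there. The deposited values are FPKM per gene symbol, estimated by the authors with RSEM per the file headers, which divides reads shared by similar transcripts; read counts were not used here. FPKM depend on the library's total, so a library rich in ribosomal RNA lists other genes lower. FPKM were scaled by a median of ratios over genes at 5 FPKM or more throughout a table (1717 in RNA, 2960 in footprints), and log2(scaled FPKM + 1) was tested for genes with a mean of at least 0.5 (12560 and 10669; all 10 members passed in both). Differences are on this scale, which understates changes of low genes such as Slc7a11. limma 3.58.1 in R 4.3.3 (trend, robust, two-sided, Benjamini-Hochberg, threshold 0.05) took the spread from all 3 groups, and the ratio (10497 genes) was the interaction of assay and group over 24 libraries. The code was tested on simulated data. Python 3.11.15, numpy 2.4.6, pandas 2.3.3 and matplotlib 3.10.9 served for depth, promoters and plots.

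Depth was read from low FPKM steps, relative to the deepest library of a table (52 of 59 RNA and 52 of 55 footprint library pairs within 0.1 log2 of the fit), from 7.38% to 100%. No libraries were identical (0 pairs).

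Deviations of same-numbered libraries from their group means correlated at 0.231 to 0.674 in RNA and at 0.354 to 0.671 in inhibitor and GFP footprints, above the limit of 0.1, so these numbers were taken to pair libraries. The lowest RNA value was that of inhibitor and mock RNA 3, where inhibitor RNA 3 correlated best with mock RNA 4. Mock footprints 3 and 4 lay at 0.283 to 0.723 and mock footprints 1 and 2 at -0.129 to 0.106, each of the latter closest to the other number.

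Members and lists were chosen with earlier results of these data known, so lists are described and not tested. Named are all members, Atf4, from each list the 2 genes with the smallest p in RNA and the 2 in footprints against GFP esiRNA, and the 5 genes most correlated with the members' mean (mean of at least 5 FPKM). Alternatives were pairing, pseudocount 0.1, no filter or a mean of 5 FPKM, deposited FPKM, quantile normalization, only the groups compared, and leaving out libraries. Pairing with only the groups compared, and pairing without the libraries numbered 1, were added after seeing the data.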

Additional observations from a re-analysis of the deposited data

Results flagged for a closer look

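Among 60 groups of 4 libraries (10 members in 6 groups), 3 held a library far from the others, where chance gives about 1 in 20. Sesn2 had 47.3 scaled FPKM in inhibitor RNA 1, the library with the most Rn45s, and 63.5 to 65.8 in the other 3 inhibitor RNA libraries. In mock RNA 2 it had 75.6, against 49.8 to 52.7 in the other 3 mock RNA libraries. Mthfd2 had 14.7 in mock footprint 4, against 9.51 to 10.1 in the other 3 mock footprint libraries.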

How the results depend on the processing

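No member passed the threshold by limma in any alternative run: of 786 values of members 0 did, with 51 of another sign than the main value and 735 of the same sign. The 288 further ratio values of members held 52 of another sign and 0 past the threshold. With the replicate block 0 of 10 members passed in each comparison. Every group holds every number, so the block cannot change a difference, and the equal medians are no check. The values of the same sign include such paired runs. Mock footprints 1 and 2 did not pair by number: their correlations with inhibitor and GFP libraries of their number were -0.13 to 0.11, and each correlated best with the other number. Those of mock footprints 3 and 4 were 0.28 to 0.72.

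FPKM as deposited, which leave the share taken by Rn45s uncorrected, moved the members' median to -0.66 for inhibitor minus GFP in RNA, -0.45 for inhibitor minus mock, 0.21 for GFP minus mock and 0.40 for the ratio of inhibitor minus GFP, with all-gene medians of -0.39, -0.19, 0.21 and 0.39. They put RNA of Asns at -0.45, Trib3 at -0.48 and Sesn2 at -0.43 against GFP and at -0.26, -0.21 and -0.18 against mock, Asns footprints at -0.040 against GFP, and the Trib3 ratio at 0.13. At a mean of at least 5 FPKM, which leaves out Slc7a11, the footprint median against GFP was -0.28. Without the libraries numbered 1, with or without the replicate block, Chac1 RNA stood at 0.079, Trib3 RNA at -0.032, Asns footprints at -0.0083 and Slc7a11 footprints at 0.020 against mock. The cause was not tested.

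Leaving out single libraries changed signs of small differences. RNA against GFP ranged from -0.093 to 0.40 for Asns, -0.38 to 0.0060 for Shmt2, -0.16 to 0.12 for Mthfd2, -0.11 to 0.11 for Trib3 and -0.68 to 0.011 for Slc7a11, and against mock from -0.17 to 0.25 for Asns, -0.20 to 0.16 for Chac1, -0.16 to 0.18 for Trib3 and -0.76 to 0.016 for Slc7a11. Footprints against GFP ranged from -0.26 to 0.32 for Asns, -0.11 to 0.0026 for Psat1 and -0.22 to 0.036 for Slc7a11, and against mock from -0.21 to 0.31 for Asns, -0.10 to 0.0057 for Psat1, -0.20 to 0.10 for Trib3, -0.29 to 0.032 for Slc7a11 and -0.12 to 0.075 for Mthfd2. The Slc7a11 ratio ranged from -0.23 to 0.64 against GFP and -0.30 to 0.52 against mock.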
